A study of Mus musculus with 7 samples.

Results

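The genes described here make and salvage deoxynucleotides, the building blocks of DNA. They were taken by symbol from the authors' deposited table of gene expression in electroporated mouse cortex, and all 9 of 9 symbols were found among its 25239 genes. The members are the salvage kinases Dck, Tk1, Tk2 and Dguok, the ribonucleotide reductase subunits Rrm1, Rrm2 and Rrm2b, the thymidylate synthase Tyms and the dNTPase Samhd1. The group was selected on the deposited fold changes and p-values of this same comparison, in which Dck was among the called genes, so the members' differences are given as a description.

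Polyadenylated RNA was measured in E15.5 cortex of C57BL/6J embryos with the genotype label wild type. Breasi-CRISPR, which delivers genome-editing components by in utero electroporation, was applied at E13.5. In 3 brains, 1 from each of 3 litters, it placed Thr280Ala in Ccnd2, the gene of the G1 cyclin D2. In 4 brains, 2 from litter 1 and 1 from each of the other litters, it placed a silent control change; the sources used here do not say which. Both groups thus went through electroporation and CRISPR, and electroporation reaches only part of the cells in the tissue collected. The values are the mean normalized count of each gene over all 7 libraries, the log2 fold change of edited over control brains, its standard error (SE) and the Wald p-values of DESeq2. The table holds no value per brain, so single brains and the overlap between the groups cannot be shown, and likeness of expression patterns across brains was not measured. Genes with a single read gave a size factor for each library. Times the summed mean normalized counts, these factors estimate the counted reads per library. The estimates were about 20800000 to 32800000 reads in edited brains and 19400000 to 29000000 reads in control brains, and are not totals as sequenced.

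A dividing cell must make enough deoxynucleotides to copy its genome in S phase. In the de novo route, ribonucleotide reductase, a complex of the large catalytic subunit RRM1 with a small subunit, turns ribonucleoside diphosphates into deoxy forms. In cycling cells the small subunit is RRM2, whose protein is made in S phase and destroyed afterwards, while RRM2B, a target of p53, serves resting cells and mitochondrial DNA. Thymidylate synthase makes dTMP from dUMP with a folate cofactor. In the salvage route, kinases phosphorylate nucleosides taken up by or released in the cell: DCK and TK1 outside mitochondria, TK2 and DGUOK inside them. SAMHD1 splits deoxynucleoside triphosphates and is known for keeping them low in myeloid cells.

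The promoter stretches of 3 members are shown because Dck is the member with the smallest p, and Rrm1 and Rrm2 encode the paired subunits of the S-phase enzyme and were the most abundant members by count. Each is the 250 bases before the RefSeq start (GRCm38.p6, plus strand, 5′ to 3′), at chr5:88764763-88765012 for Dck, chr7:102441445-102441694 for Rrm1 and chr12:24708004-24708253 for Rrm2. Capitals mark matches on either strand to a short E2F motif (TTCCCGC, the form TTCGCGC, the form TTGCCGC or the form TTGGCGC), the CHR motif TTTGAA and the CCAAT box (CCAAT); no matches overlap.
Dck: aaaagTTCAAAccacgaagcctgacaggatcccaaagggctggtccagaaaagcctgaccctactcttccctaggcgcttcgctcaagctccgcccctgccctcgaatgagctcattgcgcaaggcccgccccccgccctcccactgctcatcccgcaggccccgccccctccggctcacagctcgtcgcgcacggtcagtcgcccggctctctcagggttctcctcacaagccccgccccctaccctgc
Rrm1: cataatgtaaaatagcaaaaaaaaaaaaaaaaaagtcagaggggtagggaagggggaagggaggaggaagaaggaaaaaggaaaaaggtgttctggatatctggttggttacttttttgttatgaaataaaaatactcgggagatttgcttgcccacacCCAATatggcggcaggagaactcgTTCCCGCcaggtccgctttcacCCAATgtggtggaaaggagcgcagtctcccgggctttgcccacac
Rrm2: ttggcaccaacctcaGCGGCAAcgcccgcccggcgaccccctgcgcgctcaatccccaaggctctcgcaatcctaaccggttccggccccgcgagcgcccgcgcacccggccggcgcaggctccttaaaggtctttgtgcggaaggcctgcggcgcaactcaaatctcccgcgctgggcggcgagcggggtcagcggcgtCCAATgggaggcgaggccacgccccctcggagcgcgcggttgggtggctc
Rrm1 held TTCCCGC on the plus strand at position -67 from the start, between CCAAT boxes at -91 and -45. Rrm2 held TTGCCGC on the minus strand at -235 and a CCAAT box at -50. The Dck stretch held a CHR match on the minus strand at -245, and no E2F or CCAAT match. Of the 9 members, 8 had a promoter in the RefSeq table, and the window searched ran to 50 bases past the start. The E2F motif of 8 letters, with a further T in front (TTTCCCGC, the form TTTCGCGC, the form TTTGCCGC or the form TTTGGCGC), occurred in 0 of these 8 and in 2.32% of 27025 promoters of the same length, and the form of 7 letters in 2 of 8 and in 9.69% of all promoters. CCAAT occurred in 2 of the 8, Rrm1 and Rrm2, and in 37.9% of all promoters. TTTGAA also occurred in 2 of the 8, Dck and Tk2, and in 18.1% of all promoters. G and C made up 66.0% of the printed Dck bases, 46.0% of those of Rrm1 and 72.4% of those of Rrm2, against a median of 52.0% over all promoters.

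All 9 members were expressed well above the lowest mean with an adjusted p, 7.08 normalized counts. Levels are compared between genes as the mean normalized count over the 7 libraries per kilobase (kb) of all annotated exon bases of the gene, isoforms with retained introns included, and these means carry no error because the table gives none. On this scale Rrm2, with 2771 exon bases, had the highest level, 1468 per kb, followed by Dck (3781 bases) at 788 per kb and Rrm1 (11012 bases) at 512 per kb. Tk2 stood at 279 per kb, Tyms at 164 per kb and Tk1 at 154 per kb. The lowest levels were those of Samhd1 at 98.6 per kb, Dguok at 81.4 per kb and Rrm2b at 57.9 per kb. The order depends on the length used. Per kb of the longest protein-coding transcript, a length chosen after seeing the data, Rrm2 stood at 1855, Rrm1 at 1410 and Dck at 968, followed by Tk1 at 555 and Tk2 at 414. Dguok stood at 339 per kb of that transcript, Tyms at 316, Samhd1 at 230 and Rrm2b at 116. By either length Rrm2, the subunit of cycling cells, came highest and Rrm2b, its resting-cell counterpart, lowest, with a ratio of their levels of 25.4 per kb of exon and 16.0 per kb of transcript. Among the salvage kinases Dck came highest by either length, with a level 5.13 times that of Tk1 per kb of exon and 1.74 times per kb of transcript. The order of Tk1 and Tk2 changed with the length, as did that of Rrm1 and Dck. By mean normalized count alone Rrm1 was the highest. Lengths came from an annotation that may differ from the authors', and whether neighbours in this order differ beyond the spread between brains cannot be tested without values per brain.

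**Figure D1:**
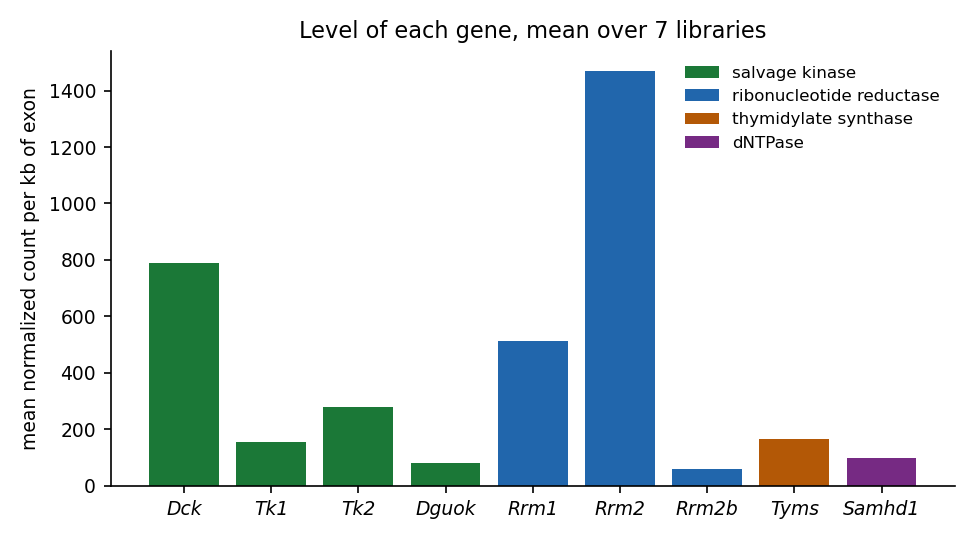
Level of each gene as the mean normalized count over 7 libraries per kb of exon, coloured by role. Rrm2 (1468 per kb), Dck (788 per kb) and Rrm1 (512 per kb) stand above the other 6 genes, which lie at 279 per kb or less; the order of Dck and Rrm1 changes with the length used.

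Of the 9 genes, 1 was called at an adjusted p below 0.05 by DESeq2, Dck, and it was higher in edited brains. Over all 14638 genes with an adjusted p in the authors' deposited table, 36 were called (0.246%), 9 of them higher in edited brains (0.0615%) and 27 lower (0.184%). Because the members were grouped with this contrast known, nothing is read from their count. Among the members, 8 had a log2 fold change above 0 and 1, Dguok, below 0, with a median of 0.15. Over all tested genes, 48.0% lay above 0 and the median was -0.01. In bulk tissue, a change in the number of cells of a type and a change in RNA per cell cannot be told apart.

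Dck, which phosphorylates deoxycytidine, deoxyadenosine and deoxyguanosine in the first step of their salvage, lies on chromosome 5 (88764996 to 88783281, plus strand, GRCm38). In the authors' deposited table its mean was 2979 normalized counts. Its log2 fold change was 0.32, with an SE of 0.08 and a DESeq2 adjusted p of 0.017, per the authors' deposited table. This corresponds to a level 24.5% higher in edited brains, with a 95% interval of 12.4% to 38.0%. Dck ranked 24th of the 36 called genes by p and 7th of the 9 higher ones, and 8th of those 9 by size of the fold. It was a small and precisely measured difference. Only 2 of the 36 called genes had a smaller SE, 1 of them among the genes higher in edited brains. Of 3315 tested genes within 2-fold of its mean count, 17 (0.513%) had a larger log2 fold change, and 749 had a smaller SE. These ranks are a description only, because Dck was known to be called when the group was selected.

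The genes beside Dck on chromosome 5 are few. Over all tested genes 0.246% were called and 5.86% had an unadjusted p below 0.05, so neither could be looked for among so few genes. Within 500 kb, the authors' deposited table gives an adjusted p for 5 other genes, with log2 fold changes of -0.05 to 0.13, 0 called by DESeq2 and 0 with an unadjusted p below 0.05. Mob1b, a kinase activator gene of the Hippo pathway that ends 0.776 kb before Dck begins, stood at 0.08 (SE 0.10) per the authors' deposited table. Grsf1, which encodes an RNA-binding protein of mitochondria, stood at 0.13 (SE 0.09) there, the highest of the 5.

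The other salvage kinases were closer to 0. Tk1, the cytosolic thymidine kinase of S-phase cells (chromosome 11, 117815526 to 117826092, minus strand), had a mean of 799 normalized counts and a log2 fold change of 0.15 (SE 0.18, 95% interval -0.20 to 0.51) per the authors' deposited table. The exons at its 5′ end share 83 bases with Afmid on the opposite strand, and the sources used here do not say whether counting used strand. Afmid had 102 normalized counts on average and a log2 fold change of -0.07 (SE 0.27) per the authors' deposited table. Tk2, the mitochondrial kinase of thymidine and deoxycytidine (chromosome 8, 104226685 to 104248558), had a mean of 996 normalized counts. The authors' deposited table puts its log2 fold change at 0.03 (SE 0.12, 95% interval -0.22 to 0.27). Dguok, the mitochondrial deoxyguanosine kinase (chromosome 6, 83480217 to 83506969), had a mean of 375 normalized counts, the fewest among the members. At -0.10 (SE 0.16, 95% interval -0.42 to 0.21), it had the one log2 fold change below 0 that the authors' deposited table gives for a member. The intervals of Tk2 and Dguok did not include the log2 fold change of Dck, 0.32, and that of Tk1 did. Differences between members were not tested, since the table gives no covariance between genes.

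None of the 3 ribonucleotide reductase genes was called, and the 95% interval of each includes 0. Rrm1, the large subunit (chromosome 7, 102441695 to 102469771, plus strand), had the most counts of the members, with a mean of 5634 normalized counts. The authors' deposited table puts its log2 fold change at 0.23 (SE 0.12, adjusted p = 0.876 by DESeq2), with a 95% interval of -0.01 to 0.46. Rrm2, the S-phase small subunit (chromosome 12, 24708241 to 24714146, plus strand), had a mean of 4067 normalized counts and a log2 fold change of 0.20 in the authors' deposited table. Its SE there was 0.30, and its 95% interval of -0.39 to 0.78 was the widest of the members. Rrm2b, the p53-inducible small subunit (chromosome 15, 37923952 to 37961318, minus strand), had a mean of 529 normalized counts and a log2 fold change of 0.03 (SE 0.15, 95% interval -0.28 to 0.33) per the authors' deposited table. It shares 734 exon bases with an antisense gene, Gm49085, which the table does not list.

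Tyms, thymidylate synthase (chromosome 5, 30058202 to 30073617, minus strand), had a mean of 1001 normalized counts. The authors' deposited table has its log2 fold change at 0.23 (SE 0.15, adjusted p = 0.959 by DESeq2), with a 95% interval of -0.07 to 0.52. Its pseudogene Tyms-ps had a mean of 0.54 normalized counts. Samhd1 (chromosome 2, 157097533 to 157135265, minus strand) had a mean of 903 normalized counts and the value nearest 0, a log2 fold change of 0.02 (SE 0.13, 95% interval -0.24 to 0.27) per the authors' deposited table. Sorted by the setting in which each enzyme is best known to act, a grouping made with the values known, the members with S-phase roles (Rrm1, Rrm2, Tk1 and Tyms) had log2 fold changes of 0.15 to 0.23. Those of mitochondria, resting cells or dNTP breakdown (Tk2, Dguok, Rrm2b and Samhd1) had -0.10 to 0.03. None of these 8 genes was called by DESeq2, and 0 of the 8 had an unadjusted p below 0.05. Over all tested genes the shares were 0.246% and 5.86%.

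**Figure D2:**
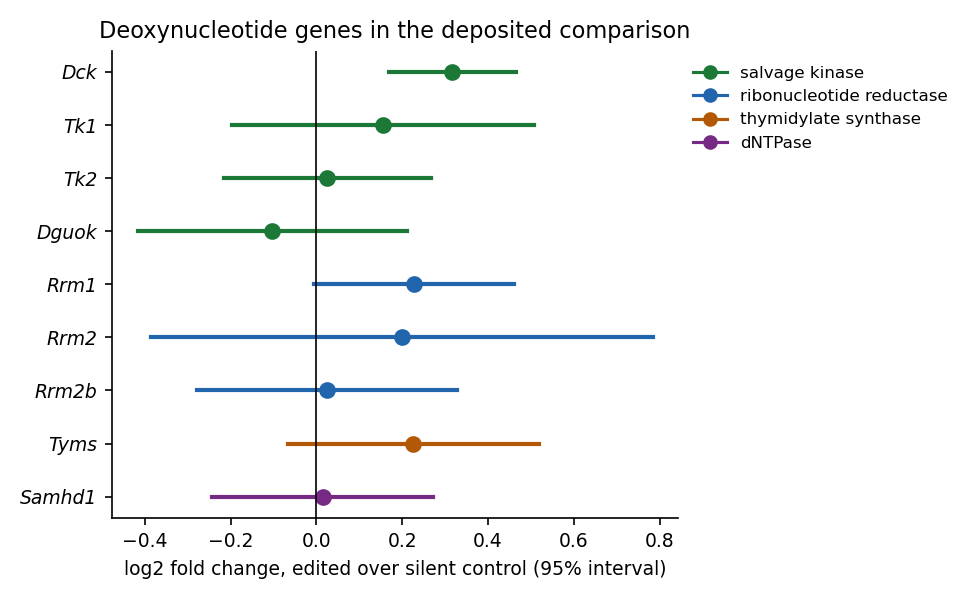
Log2 fold change of each gene, edited over silent control, with its 95% interval from the authors' deposited table. The interval of Dck lies above 0, at 0.17 to 0.46 on the log2 scale, and those of the other 8 genes include 0.

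The SE set how large a difference each gene would have needed. The largest p that passed in the authors' deposited table was 0.000117, which corresponds to a log2 fold change of 3.85 SEs. At its own SE, Dck needed a log2 fold change of 0.29 and had 0.32. Rrm1 needed 0.46, Tk2 0.48, Samhd1 0.51 and Tyms 0.58 on the same scale. The sizes needed were 0.59 for Rrm2b, 0.62 for Dguok, 0.69 for Tk1 and 1.15 for Rrm2. A difference of the size of Dck's would therefore not have been called in any of the other 8 members, and 5 of these 8, all but Tk2, Dguok and Samhd1, had a 95% interval that included 0.32.

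Counting error was a small part of these SEs. If reads were the only source of error, the SE of Dck would be 0.02 on the log2 scale, and its SE in the authors' deposited table was 3.74 times that. This ratio was 2.82 for Dguok, the lowest, and 17.2 for Rrm2, the highest. The SEs were also read back through a negative binomial fit on litter plus treatment. The SE of Dck then implied a fitted spread of 6.51% beyond counting, and that of Rrm2 a fitted spread of 26.6%. The remaining members lay between 10.5% for Rrm1 and 15.7% for Tk1. These percentages are not spreads measured between brains, because the table holds no value per brain. DESeq2 commonly moves the fitted spread of a gene towards a trend over all genes, except for genes far above it. The percentages of Dck and Rrm2 may therefore not be comparable.

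Beside genes of like abundance, Dck was measured tightly and the S-phase members loosely. The SE of Dck was 0.889 times the median of genes within 2-fold of its mean count, and the other 8 members were above 1 on this ratio. Dguok stood at 1.02, Tk2 at 1.10, Rrm2b at 1.11 and Samhd1 at 1.13, close to their neighbours in abundance. Tyms reached 1.33, Tk1 1.49 and Rrm1 1.52, and Rrm2 reached 3.69. Only 28 of 2605 genes of like abundance had a larger SE than Rrm2. SEs of these genes left an empty stretch between 0.18 and 0.24, with 50 of the 2606 genes (1.92%), Rrm2 included, above it. DESeq2, as it is commonly run, moves dispersions towards a trend over all genes and leaves out genes far above it, and the sources used here do not say whether Rrm2 was such a gene in the authors' fit. Wide SEs were common among cell cycle genes. Of 58 genes of replication and of G2 and mitosis, 54 had a ratio above 1, with a median of 1.42. The highest ratio among them, 3.11, was that of Uhrf1, a reader of hemimethylated DNA at the replication fork, and none of the 58 reached that of Rrm2. Wide SEs were not particular to cell cycle genes. The median ratio was 1.36 over 18 markers of microglia and macrophages, and 2 of these reached that of Rrm2. Over 17 genes of maturing neurons it was 1.17, with a highest value of 3.07.

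**Figure D3:**
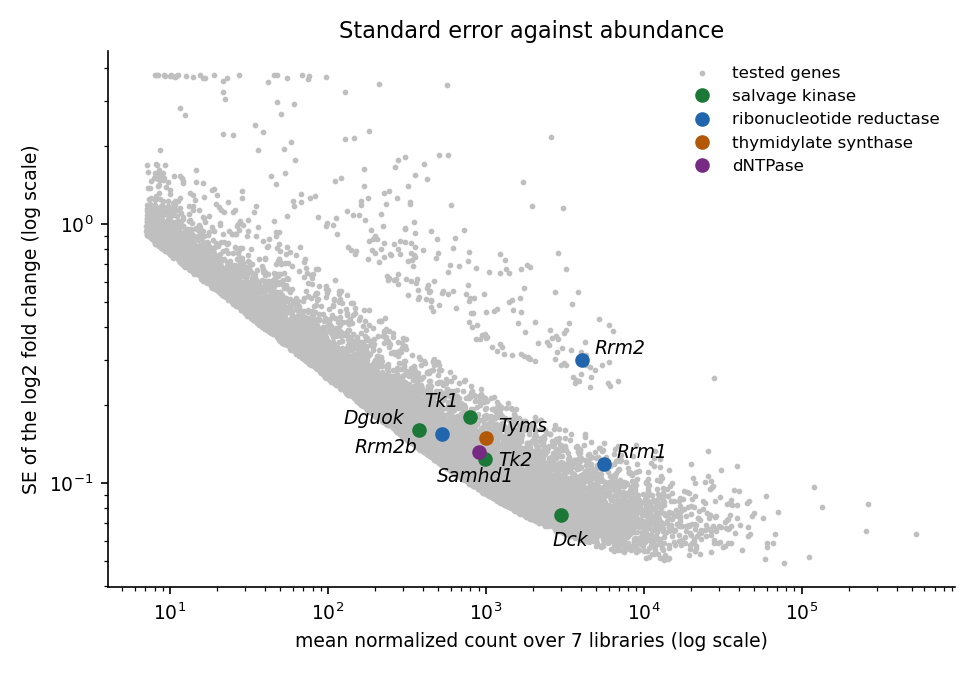
SE of the log2 fold change against the mean normalized count, both on log scales, for the tested genes (grey) and the members (coloured by role). Dck (SE 0.08) lies in the lower part of the cloud and Rrm2 (SE 0.30) in a separate band above it.

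The wider nucleotide network was read from 9 lists with 97 genes, of which 90 had an adjusted p. None of the 90 was called by DESeq2, 5 had an unadjusted p below 0.05 on the higher side and 2 on the lower side, 54 lay above 0 and the median log2 fold change was 0.03. Over all tested genes, 0.246% were called, so few calls could fall among 90 genes in any case. The share of all tested genes with an unadjusted p below 0.05 was 5.86%, 2.2% higher and 3.66% lower. Only 1 of the 90 had a larger log2 fold change than Dck, the mitochondrial adenylate kinase gene Ak4, at 0.43 (SE 0.17, adjusted p = 0.477) per the authors' deposited table. This rank is a description only, because Dck was known to be called when the group was selected.

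Folate enzymes supply the one-carbon units that thymidylate synthase uses. Of 16 folate cycle genes, 11 lay above 0, with a median log2 fold change of 0.03. Shmt2, the mitochondrial serine hydroxymethyltransferase, stood at 0.29 (SE 0.09, adjusted p = 0.234) per the authors' deposited table. Mthfd1, a cytosolic enzyme with several folate activities, stood at 0.25 (SE 0.11) there. Among 8 genes of dUMP supply and dNTP pool cleaning, 4 lay above 0 and the median was -0.01. Dctd, the deaminase that makes dUMP from dCMP, was at 0.27 (SE 0.14), Nudt16 at -0.15 (SE 0.17) and the dUTPase gene Dut at 0.12 (SE 0.15) per the authors' deposited table.

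The kinases that take monophosphates onward to triphosphates showed no common direction. Of 16 such genes 8 lay above 0, with a median of 0.00, and apart from Ak4 those with the smallest p were Ak5 at -0.60 (SE 0.31) and Ak6 at 0.21 (SE 0.14) per the authors' deposited table. Of 7 genes for the electron donors of ribonucleotide reductase, 3 lay above 0, with a median of -0.04. There, the glutaredoxin gene Glrx stood at -0.43 (SE 0.21), the thioredoxin gene Txn1 at -0.12 (SE 0.07) and the glutathione reductase gene Gsr at 0.15 (SE 0.11) per the authors' deposited table.

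Synthesis of new ribonucleotides, the substrates of the reductase, leaned upwards in count, with no gene called. All 5 pyrimidine synthesis genes lay above 0 (median 0.10), with Cad, the enzyme of the first steps, at 0.23 (SE 0.12), Umps at 0.16 (SE 0.11) and Ctps2 at 0.09 (SE 0.10) per the authors' deposited table. Of 12 purine synthesis genes, 10 lay above 0 (median 0.11), with Prps2 at 0.26 (SE 0.14), Pfas at 0.22 (SE 0.12) and Paics at 0.13 (SE 0.09) per the authors' deposited table. Salvage of ribonucleosides and bases had 4 of 7 genes above 0 (median 0.01). Its smallest p-values belonged to the adenosine kinase gene Adk at 0.17 (SE 0.12), Uck2 at 0.10 (SE 0.09) and Uprt at 0.11 (SE 0.11) per the authors' deposited table. Nucleotidases and enzymes of nucleoside breakdown had 3 of 12 tested genes above 0 (median -0.05), while 4 further genes had too few counts for an adjusted p. Dpyd, which degrades thymine and uracil, stood at -0.78 (SE 0.52), Pnp at -0.27 (SE 0.20) and Mtap at 0.12 (SE 0.12) per the authors' deposited table. Of 7 tested transporter genes 6 lay above 0 (median 0.07), led by Slc25a33, a mitochondrial pyrimidine nucleotide carrier, at 0.29 (SE 0.19) per the authors' deposited table. In that deposited table Slc29a4 stood at 0.08 (SE 0.07).

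Lists tied to single members gave the following values. Over all tested genes 0.246% were called and 5.86% had an unadjusted p below 0.05, so few of either could fall in lists this short. For the mitochondrial kinases and Rrm2b, 10 of 12 genes of mitochondrial DNA maintenance lay above 0, with a median of 0.07, 0 called by DESeq2 and 0 with an unadjusted p below 0.05. The nuclease-helicase gene Dna2 stood at 0.38 (SE 0.23), the helicase gene Twnk at 0.13 (SE 0.10) and Tfam, which packages mitochondrial DNA, at 0.08 (SE 0.08) per the authors' deposited table. For Rrm2b as a p53 target, 7 of 14 tested p53 target genes lay above 0, with a median of 0.01, 0 called by DESeq2 and 1 with an unadjusted p below 0.05. That gene, Pmaip1, which encodes the apoptosis protein NOXA, stood at -0.86 (SE 0.42) with a mean of 41.3 normalized counts, Trp53inp1 at 0.21 (SE 0.11) and Mdm2 at 0.15 (SE 0.08) per the authors' deposited table. For the proteolysis of RRM2 and TK1 at the end of the cycle, 5 of 6 genes lay above 0, with a median of 0.11, 0 called by DESeq2 and 0 with an unadjusted p below 0.05. Their smallest p-values belonged to Cul1 at 0.10 (SE 0.07), the mitotic activator gene Cdc20 at 0.18 (SE 0.15) and Ccnf, cyclin F, which marks RRM2 for degradation, at 0.12 (SE 0.13) per the authors' deposited table.

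The log2 fold changes of the S-phase members are set here beside those of other cell cycle genes. The S-phase grouping was made with the values known, and both lists were chosen with earlier results known, so likeness was not tested. Over all tested genes 0.246% were called and 5.86% had an unadjusted p below 0.05. Of 32 replication genes, 28 lay above 0, with a median of 0.15, a range of -0.07 to 0.30, 0 called by DESeq2 and 3 with an unadjusted p below 0.05. These 3, the helicase subunit genes Mcm7, Mcm2 and Mcm3, stood at 0.26 (SE 0.12), 0.27 (SE 0.13) and 0.30 (SE 0.15) per the authors' deposited table. All 26 genes of G2 and mitosis lay above 0, with a median of 0.20, a range of 0.07 to 0.31, 0 called by DESeq2 and 0 with an unadjusted p below 0.05. In the authors' deposited table Top2a stood at 0.27 (SE 0.14), Ect2 at 0.31 (SE 0.17) and Kif11 at 0.26 (SE 0.14). The values of Rrm1, Rrm2, Tk1 and Tyms, 0.15 to 0.23, fell inside both ranges. That of Dck, 0.32, lay above every one of the 58, the highest of which was Ect2 at 0.31. The replication range also held Tk2, Rrm2b and Samhd1, at 0.02 to 0.03, so lying inside it is not particular to the S-phase members. These values of Tk2, Rrm2b and Samhd1 were below the range of G2 and mitosis. None of the 58 had an SE as small as that of Dck. The place of Dck beside the 58 is a description only, because Dck was known to be called when the group was selected. Neither the difference of Dck from these genes nor that between the lists was tested.

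**Figure D4:**
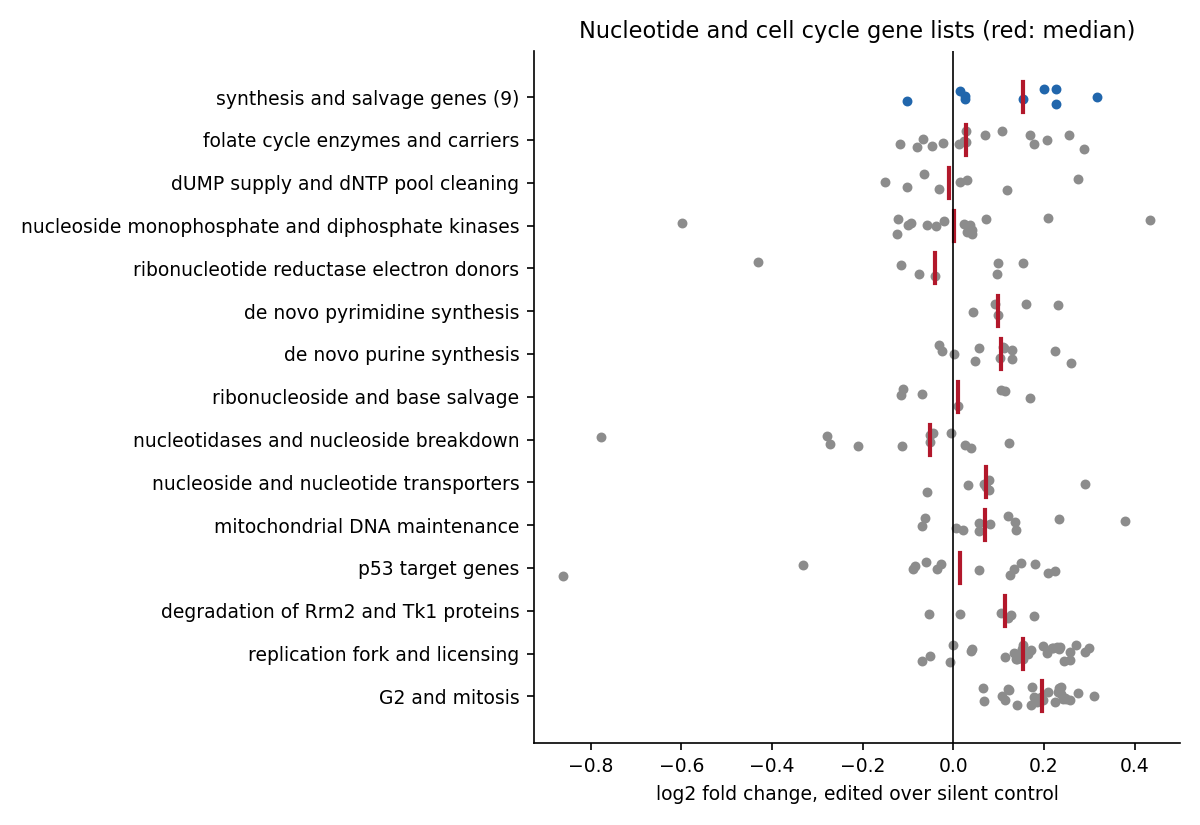
Log2 fold change of each tested gene (points) in the members, the nucleotide lists and related lists, with the list median in red; points are spread vertically for legibility. The median is 0.15 for the members, 0.15 for the replication list and 0.20 for G2 and mitosis. Members and lists were chosen with results of these data known, so the medians are a description only.

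Markers of the cell types in the tissue lay to one side of 0 in most lists, though none was called, and their part in the members' values was not tested. Of 18 markers of apical radial glia, 15 lay above 0 (median 0.14), with Mfge8 at 0.27 (SE 0.11), Sox9 at 0.39 (SE 0.14) and Aldoc at 0.29 (SE 0.10) per the authors' deposited table. The 3 below 0 were Glul at -0.25 (SE 0.13), Fabp7 at -0.20 (SE 0.13) and Slc1a3 at -0.03 (SE 0.11) there. Of 12 markers listed for intermediate progenitors, 11 lay above 0 (median 0.18), with Neurog1 at 0.61 (SE 0.19) and Rhbdl3 at 0.32 (SE 0.10) per the authors' deposited table. The exception in this list was Penk, a neuropeptide gene best known in striatal neurons, at -1.26 (SE 0.33, adjusted p = 0.056) per the authors' deposited table. Of 17 genes of maturing neurons, 14 lay below 0 (median -0.13), with Syt1 at -0.33 (SE 0.09), Gap43 at -0.27 (SE 0.08) and Stmn2 at -0.28 (SE 0.09) per the authors' deposited table. The 3 above 0 were Nefm at 0.35 (SE 0.36), Nefl at 0.02 (SE 0.24) and Rbfox3 at 0.02 (SE 0.09) there. All 18 markers of microglia and macrophages lay below 0 (median -0.59), with C1qb at -0.81 (SE 0.27), Ptprc at -1.03 (SE 0.38) and C1qa at -0.64 (SE 0.24) per the authors' deposited table, beside 0.02 for Samhd1. All 14 endothelial markers lay below 0 (median -0.30), with Cldn5 at -0.44 (SE 0.16), Eng at -0.36 (SE 0.14) and Ramp2 at -0.51 (SE 0.26) per the authors' deposited table. Of 4 tested erythroid genes 1 lay above 0 (median -0.12), with Alas2 at -0.23 (SE 0.22) and Hba-x at -0.02 (SE 0.31) per the authors' deposited table, which lists the globin genes Hba-a1, Hba-a2, Hbb-bs and Hbb-bt at 0. All 8 tested markers of choroid plexus and cortical hem lay above 0 (median 2.78), with Folr1 at 4.45 (SE 1.58), Ttr at 5.30 (SE 2.17) and Lmx1a at 1.81 (SE 0.74) per the authors' deposited table. Values in this list ran from 0.16 to 5.30 and were imprecise, with a median SE of 1.33 against 0.14 over all tested genes. Of the 91 tested marker genes 0 were called by DESeq2, while 13 had an unadjusted p below 0.05 on the higher side and 15 on the lower side. Over all tested genes 0.246% were called, so few calls could fall among 91 genes in any case. The shares with an unadjusted p below 0.05 were 2.2% higher and 3.66% lower over all tested genes. The marker lists were chosen with earlier results of these data known. Summed over a list, the mean normalized counts came to 85110 for apical radial glia, 34314 for intermediate progenitors and 223132 for maturing neurons. The sums were 5326 for microglia and macrophages, 9716 for endothelium, 934 for erythroid cells and 3777 for choroid plexus and hem. Ttr alone held 2576 of the last sum.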

How the data were processed

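RNA sequencing of 3 Ccnd2 Thr280Ala and 4 silent control brains from 3 litters was read from 1 table of the authors. The submitters' processing notes name mm10, cutadapt, featureCounts and DESeq2, without settings. The mean normalized count is a signal that the authors deposited: each library's counts are divided by its size factor and averaged over the 7 libraries. Per the file headers, each log2 fold change comes with its SE from the authors, and the Wald statistic is a score the authors deposited. Each p-value and adjusted p-value is as deposited, and 14638 of 25239 genes had an adjusted p.

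The table holds both signs of the fold change and names no direction. The 694 genes with 1 read in 1 library fell into 7 classes, 3 above 0 and 4 below 0, which places positive values of the printed fold change in the 3 edited libraries. A rebuilt negative binomial fit on litter plus treatment matched the classes in fold change and SE to within 2.86e-05, against 0.19 with treatment only. The classes also gave the size factors, and from these the estimated library totals and the fitted spread implied by each SE. The steps were tested on simulated data, with 10 of 10 library sets placed right. These sets were made without noise by the same fit, so they check the code and not the authors' data. No gene was refitted. Intervals of 95% use the normal quantile times the SE.

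The members and the 21 other lists were chosen with earlier results of these data known. In each list the 3 genes with the smallest p were named, and any called, except 3 genes that are not reported here. Uhrf1, Grsf1, Mob1b, Afmid, Tyms-ps, Glul, Fabp7, Slc1a3, Nefm, Nefl and Rbfox3 were chosen after their values were seen or for their position. Brains are separate embryos per the labels. Gene positions and exon lengths are from GENCODE M21 (GRCm38) and promoters from RefSeq. Alternatives were adjustment over other sets of genes, an adjusted p below 0.1, centring on the median, a narrower abundance window and a shorter motif, with transcript length added after seeing the data. Python 3.11.15 with numpy 2.4.6, pandas 2.3.3, scipy 1.17.1 and matplotlib 3.10.9 was used.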

Additional observations from a re-analysis of the deposited data

How the results depend on the processing

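Dck was the 1 called member under each alternative run, with an adjusted p of 0.022 over all 18976 genes with a p-value and 0.014 over the 11356 genes that averaged at least 100 normalized counts, against 0.017 as deposited. Over all genes, 31 and 34 genes were called under these adjustments and 57 at an adjusted p below 0.1, against 36. At an adjusted p below 0.1, 1 gene of the other lists was called, Penk, lower, against 0 at 0.05. The threshold of 0.1 could add members but could not drop Dck. After centring on the median, 8 members remained above 0, and the median of -0.01 was too small to change the sign of any member. With the narrower abundance window, 8 members again had an SE above the median of their neighbours. Without its first T the E2F motif occurred in 2 member promoters, against 0 with all 8 letters. Among genes that averaged at least 100 normalized counts, the intermediate progenitor list no longer held Penk, its 1 gene below 0, against 91.7% above 0 with it. In the other lists the share stayed within its 95% binomial interval. That interval takes genes as independent and is wide for short lists, so it could hardly have shown a change. No paired analysis was possible because the table holds no values per library, and for the same reason no brain could be left out. The authors' fit already holds litter, as the rebuilt classes show. With 1 comparison and no counts per brain, a difference that rests on 1 brain cannot be seen.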
